A study of Mus musculus with 4 samples.

Results

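The splicing factors examined here are the genes of the SR proteins, the heterogeneous nuclear ribonucleoproteins (hnRNPs), the small nuclear ribonucleoproteins (snRNPs) and the SF3 and U2AF factors, in lenses of Celf1 conditional knockout (cKO) mice. Members were taken by gene symbol alone, as probes whose symbol starts with Sfrs, Srsf, Hnrnp, Hnrp, Snrp or Sf3, or is U2af1, U2af2, Sf1, Tra2a, Tra2b, Prpf8, Srrm1 or Srrm2, and were retained where the detection p-value lay under 0.05 on at least 2 of the 4 arrays. Of 125 probes with such a symbol, for 62 genes, 88 probes of 52 genes were retained, among 16262 retained probes and 11523 genes tested in all. The rule reads symbols and detection alone. The 10 genes without a retained probe were Hnrnpa3, Hnrnpd, Hnrnph2, Hnrnpr, Hnrnpu, Sf3b1, Snrpb2, Snrpe, Srek1ip1 and Srrm1.

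The series compared lenses at postnatal day 6 (P6) on Illumina bead arrays, each array holding the RNA of 1 lens, with 2 Celf1 cKO and 2 Control lenses. In the cKO mice a floxed Celf1 allele, deleted by a Cre recombinase under lens control of Pax6, stood opposite a lacZ knock-in allele. The Control mice were Celf1 lacZKI/+, so that both genotypes carried the lacZ knock-in allele and the Control kept 1 wild-type copy. Whether these Control mice carried the Cre transgene is not stated. The mice were of a mixed C57BL/6 and FVB background, and the Pax6 driver is also active in the pancreas.

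Introns are removed by the spliceosome, whose snRNP particles recognise the splice sites. Most snRNPs are built around a ring of Sm proteins, U2AF and SF1 mark the end of the intron, and the SF3 proteins belong to the U2 snRNP that replaces SF1 at the branch point. SR proteins mostly promote the use of an exon and hnRNPs often oppose it, and the balance of both sets the pattern of alternative splicing. Celf1 is itself an RNA-binding protein that acts on alternative splicing, decay and translation of its targets. In the lens, the fiber cells lose their nuclei as they mature, so that the transcripts of fully mature fibers were made earlier.

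The targeted gene was read first. On a log2 scale after background correction and quantile normalisation, Celf1 signal stood at 7.45 and 6.95 for cKO and at 8.71 and 8.55 for Control lenses, a cKO minus Control difference of -1.43 ± 0.19 (SE, n = 2 per genotype) with a limma adjusted p of 0.00968. Without Celf1 cKO replicate B the difference was -1.20 relative to all genes and missed the call with an adjusted p of 0.0512, as it did in the deposited normalised table with values under 1 set to 1, with 0.0762. Between 14180 and 16925 probes were detected per array, and the cKO arrays were brighter, with unnormalised intensities at the 99th percentile of 3209 and 3444 against 2158 and 1699. Xist was detected on both cKO arrays and on neither Control array, while Ddx3y, a transcript of the Y chromosome, was at 6.81 and 4.83 in cKO lenses and at 8.99 and 8.82 in Control lenses. Uty, also of the Y chromosome, was near the detection limit at 4.67 and 4.89 in cKO and, undetected, at 4.47 and 4.52 in Control lenses, and Kdm5d and Eif2s3y had no retained probe. Genotype thus cannot be told apart from sex-linked transcripts or from array brightness. Among lens fiber genes 7 of 8 were tested, and the summed signal lay at 165360 to 171670 in cKO and 186220 to 186430 in Control lenses, with Bfsp2 called as reduced. Most of these genes lay near the top of the scale, with Mip at 14.755 in Celf1 cKO replicate A and in both Control lenses. The sum is therefore not read as a measure of fiber content. Of 4 lens epithelium genes tested, Foxe3 was called as reduced, Sox2 and Cdh1 stood at -0.69 and -0.54 without passing the call, and Dkk3 at 0.00491, with a list median of -0.61. The calls of Foxe3 and Bfsp2 were lost without either cKO replicate, and that of Bfsp2 without Control replicate B too. Of 6 retina and 6 pigment cell markers 1 each was retained, Pde6b, detected on both cKO arrays and no Control array and not called, and Pmel at -0.40. Of 4 vessel genes none was called, with Kdr at -0.59 and Cdh5 at 0.58, and 2 at an unadjusted limma p under 0.05, where 31.9% of all genes stood. Of 3 macrophage genes tested, Cd68 was called as higher, by at least 1.26-fold since no Control array detected it, a call lost when any array was left out, while Aif1 and Csf1r had log2 fold changes of -0.06 and -0.11. Their part in the results below was not tested.

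Most splicing factor genes differed little between the genotypes. A gene was called where limma gave a Benjamini-Hochberg adjusted p under 0.05 over all genes, the log2 fold change passed 0.58 in either direction and the mean log2 signal passed 4.6. By this rule 4 of the 52 splicing factor genes were called, or 7.69%, against 11.6% of all genes tested. Hnrnph3 and Sugp2 fell, 2 of 52 where 5.64% of all genes were reduced, and Scaf11 and Akap17b rose, 2 of 52 where 6.01% of all genes were elevated. The members' share thus lay near or under that of all genes in each direction. This order turned with arrays only set to the same median, where 63.5% of members and 47.0% of all genes were called, and without normalisation between arrays, with 69.2% and 50.3%, each called member then being elevated. Without Celf1 cKO replicate B or without Control replicate B no member was called, where 170 and 495 of all genes still were, and without Control replicate A only Hnrnph3 and Sugp2 were. In the normalised table of the deposit, Hnrnph3 and Sugp2 alone were called with 16 added to the values, and no member with values under 1 set to 1.

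The size of the differences gave the same picture. The median log2 fold change was -0.05 over the members and 0.01 over all genes, with 21 members above 0 and 31 below. The median size regardless of direction was 0.19 for members and 0.25 for all genes. The 2 cKO values lay wholly above or wholly below the 2 Control values for 32 members, or 61.5%, and for 62.3% of all genes. At an unadjusted limma p under 0.05 stood 15 members, 9 higher and 6 lower in cKO lenses, or 28.8% against 31.9% of all genes.

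A gene that missed the call is not shown to be equal in both genotypes, so that the interval of each difference matters. For 30 of the 52 genes, or 57.7%, the 95% interval of the log2 fold change lay inside -0.58 to 0.58, against 40.4% of all genes. For 49 it lay inside -1 to 1. The members were brighter, with a median log2 signal of 7.87 against 6.02 for all genes. Sf3a2 and Sfswap, among the 30, were detected on no Control array, so their narrow intervals do not show equal levels. The standard errors of the members ran from 0.13 to 0.24. With 2 lenses per genotype, the intervals of 22 members still reached past the fold threshold.

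**Figure D1:**
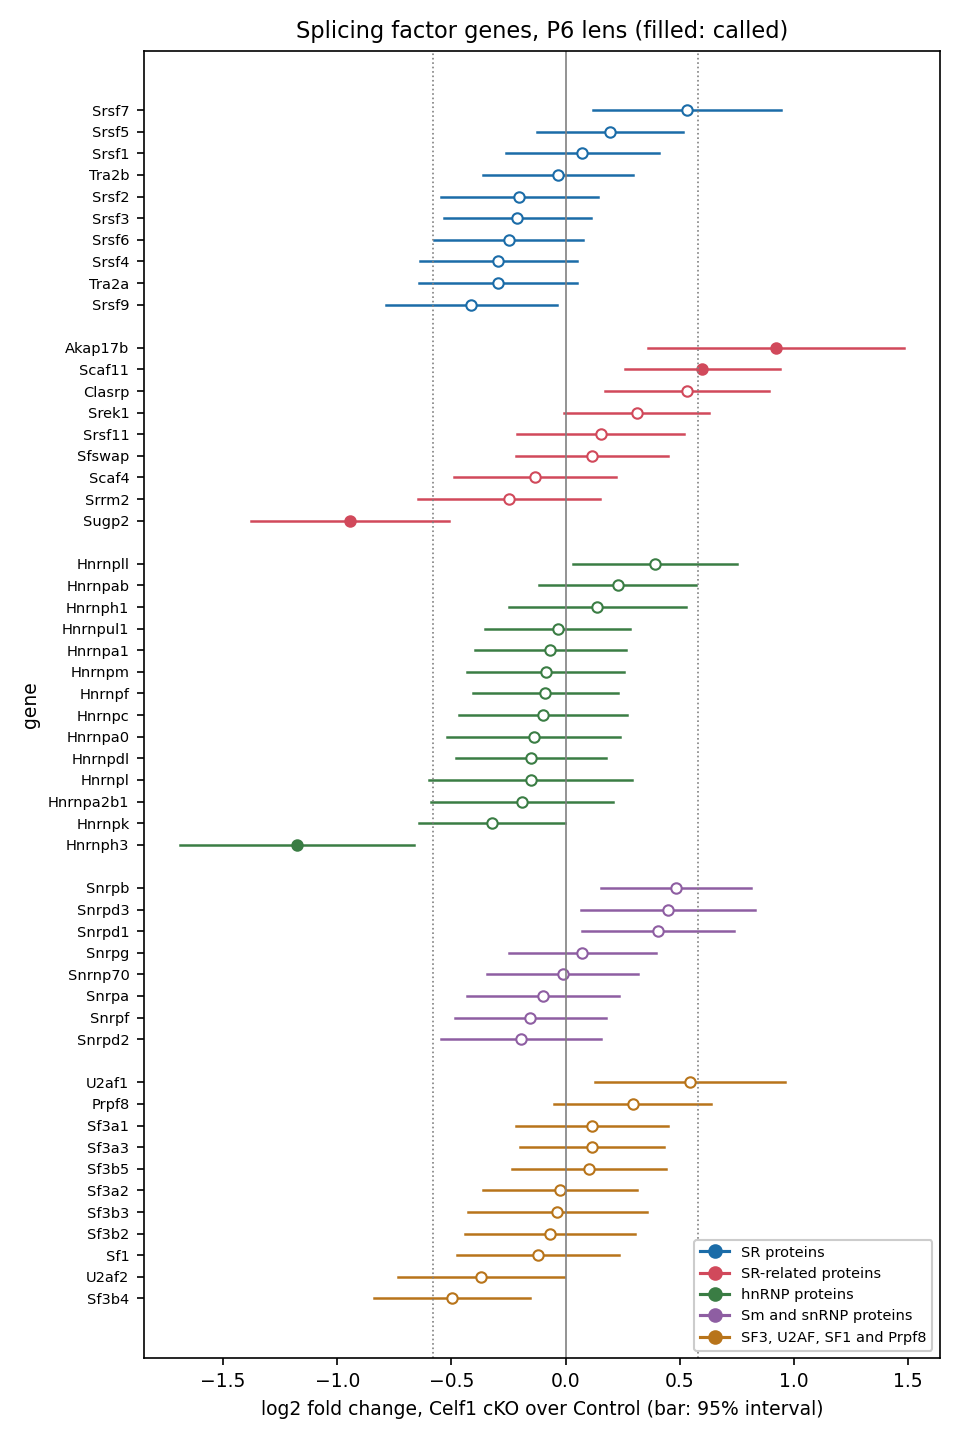
Log2 fold change (x axis, Celf1 cKO over Control) of the 52 splicing factor genes (y axis) by family, with 95% intervals from limma as bars. Filled points are the 4 called genes, of which Hnrnph3 and Sugp2 lie left of the dotted line at -0.58 and Scaf11 and Akap17b right of that at 0.58, while the other 48 points lie between the dotted lines.

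Of 14 hnRNP genes tested, out of 19 on the array, Hnrnph3 was the only one called, or 7.14% where 11.6% of all genes were. Hnrnph3 encodes a small relative of hnRNP H, a family that binds runs of G and acts on splice site choice. Its signal was 6.17 and 5.72 in the cKO lenses and 6.90 and 7.34 in the Control lenses. Both cKO values lay under both Control values, and the mean fell from 7.12 ± 0.31 to 5.95 ± 0.32 (SD, n = 2), a log2 fold change of -1.18 ± 0.22 (SE) or 2.26-fold, with a limma adjusted p of 0.0209. The call did not hold without Celf1 cKO replicate B or without Control replicate B, where the difference relative to all genes was -0.96 in both cases.

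Hnrnph3 was read by a single retained probe, which starts at base 2 of its annotated transcript, so no other part of the transcript was read. Its unnormalised intensities were 117 and 97 in cKO and 132 and 134 in Control lenses. The order of the genotypes was thus the same before any scaling, with a smaller gap, and Hnrnph3 was not called when the arrays were only set to the same median or not normalised. In both settings it stood at -1.02 relative to all genes, whose median these settings raised.

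Hnrnpk, an abundant poly(C)-binding hnRNP, was at 7.396 and 7.358 in cKO against 7.74 and 7.66 in Control lenses. The groups did not overlap, the log2 fold change was -0.32 ± 0.13 (SE) and the adjusted p was 0.154. At the other end stood Hnrnpll, known as a regulator of splicing in lymphocytes, at 6.57 and 6.51 against 6.28 and 6.02, with a log2 fold change of 0.39 ± 0.15 (SE) and an adjusted p of 0.13.

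The remaining hnRNP genes spread tightly around 0. Hnrnpab had a log2 fold change of 0.23 (95% interval -0.12 to 0.57), and Hnrnph1, the larger relative of Hnrnph3, one of 0.14 (-0.25 to 0.53). Relative to all genes, Hnrnpab stood at 0.097 without Control replicate A, and Hnrnph1 at -0.011 without Control replicate B. Hnrnpa1 and Hnrnpc, which package nascent transcripts, had log2 fold changes of -0.07 and -0.10, and Hnrnpm one of -0.09. Hnrnpa2b1 stood at -0.19 (-0.59 to 0.21) as the mean of 2 probes that differed, as described with the probes below. In total 3 hnRNP genes were above 0 and 11 below, 7 of 14 did not overlap between the genotypes against 62.3% of all genes, and the median was -0.09. Relative to all genes this median was -0.10, and went to -0.17 without Celf1 cKO replicate A and to -0.02 without Celf1 cKO replicate B.

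The SR-related proteins carry arginine- and serine-rich stretches or bind SR proteins without being classical SR proteins. Of 11 such genes on the array 9 were tested and 3 were called, in opposite directions, so that 33.3% of this small family passed where 11.6% of all genes did. Scaf11 and Akap17b were placed in this family after their values were known, so that share is a description only. Sugp2, which holds the SURP and G-patch domains of splicing proteins, was at 8.82 and 8.53 in cKO and at 9.43 and 9.81 in Control lenses. It fell by 0.95 ± 0.18 on the log2 scale (SE, n = 2 per genotype), or 1.93-fold, with an adjusted p of 0.0236.

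Before scaling, however, the Sugp2 probe read 614 and 549 in cKO lenses and 611 and 615 in Control lenses. These intensities were nearly level, whereas the median intensity over all 88 member probes was 322 and 334 in cKO and 237 and 161 in Control lenses. The reduction is therefore one relative to the brighter cKO arrays, and, as for Hnrnph3, the call was absent when the arrays were only set to the same median or not normalised at all. In those settings Sugp2 stood at -0.66 relative to all genes. The call was also lost without Celf1 cKO replicate B or Control replicate B.

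Scaf11, a partner of U2AF and SR proteins, rose from 5.78 and 5.84 in Control to 6.32 and 6.50 in cKO lenses. The log2 fold change was 0.60 ± 0.14 (SE), just past the threshold, with an adjusted p of 0.0409. Akap17b, an X-linked relative of the SR-like protein Akap17a, stood at 5.90 and 6.63 in cKO and at 5.40 and 5.30 in Control lenses, a log2 difference of 0.92 ± 0.24 (SE) with an adjusted p of 0.0495. Its 2 cKO lenses differed by more than any other called member's, and among the arrays left out in turn the call was kept without Celf1 cKO replicate A only. Relative to all genes its log2 fold change of 0.91 became 0.54 without Celf1 cKO replicate B, and with an offset of 50 it became 0.58 and lost the call. With cyclic loess it stood at 0.89 with an adjusted p of 0.0587, and 3 members were called. Scaf11 lost its call when any array was left out. With all 4 arrays but other processing it ranged from 0.40 to 0.76 relative to all genes. Its call was absent in both forms of the deposited normalised table, without background correction and with an offset of 50, among other settings. A second Akap17b probe, filed under the older symbol B230333C21Rik and thus outside the rule, shares a run of 31 bases with the first and read 5.83 and 6.48 against 5.12 and 5.42, with a log2 fold change of 0.88 and an adjusted p of 0.053. Akap17b lies on the chromosome that also carries Xist, whose levels separated the genotypes.

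The first 30 bases of the probes behind these calls are given here to show what was measured. For Scaf11, the capitals mark the 29 letters that both of its probes hold within this window, as these probes are shifted by a base. They thus read nearly the same stretch of RNA, and gave log2 fold changes of 0.61 and 0.59. Neither was called on its own, with limma adjusted p of 0.0507 and 0.0673 in the fit of single probes.
Sugp2, chromosome 8, plus strand, 72786838 to 72786887: gtttgttcctgttcctggatgtgcgtcgtg
Akap17b, chromosome X, minus strand, 34148482 to 34148531: gggcctgacgttgttttatttaaagagggg
Scaf11, chromosome 15, minus strand, 96245256 to 96245305: GGCCAATCTGGTTAAGGCGTACGTAGACAa
Scaf11, probe without coordinates: tGGCCAATCTGGTTAAGGCGTACGTAGACA

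Clasrp, a partner of the Clk kinases, narrowly missed the call at 6.72 and 6.50 against 6.16 and 6.00, with a log2 fold change of 0.53 ± 0.15 (SE) and an adjusted p of 0.0621. Srrm2, a large scaffold of nuclear speckles, and Scaf4, which binds the tail of RNA polymerase II, had log2 fold changes of -0.25 and -0.13 with intervals that included 0, and Srrm2 stood at -0.13 relative to all genes without either the B replicate of cKO or the A replicate of Control lenses. Srek1 and Sfswap were detected on both cKO arrays and on no Control array, so that only a bound exists for their Control level and neither was called.

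**Figure D2:**
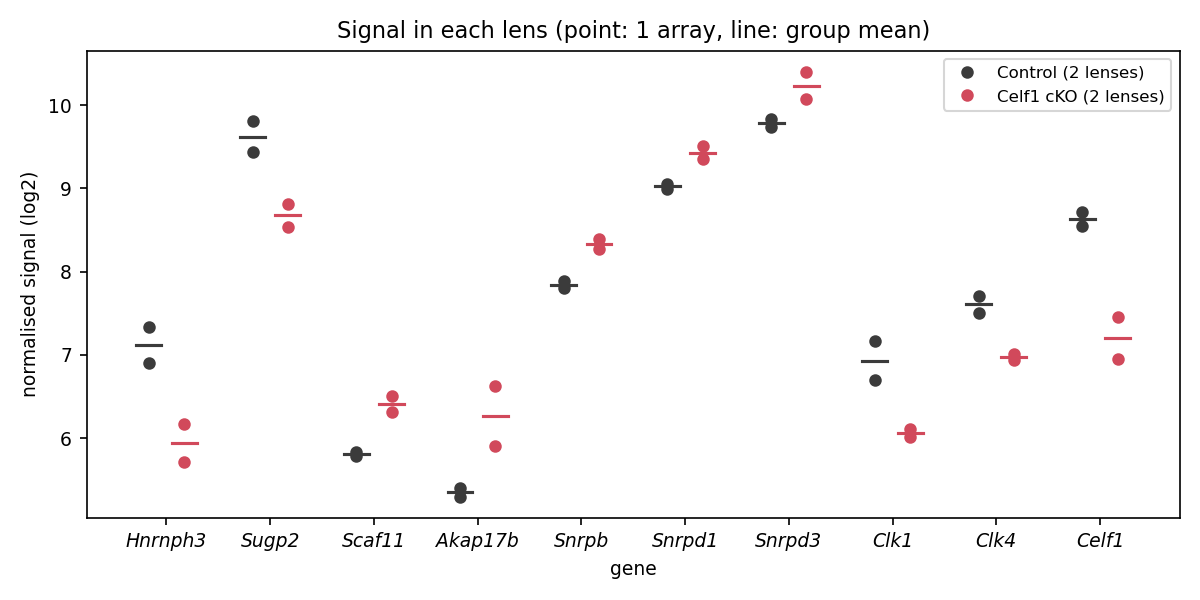
Normalised log2 signal (y axis) of each array (points, 2 per genotype, with a line at the group mean) for the 4 called members, the 3 Sm genes with the highest log2 fold change, the kinases Clk1 and Clk4, and Celf1. In each gene shown the 2 cKO points lie wholly on one side of the 2 Control points.

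The SR proteins counted here are Srsf1 to Srsf7, Srsf9, Tra2a and Tra2b, while Srsf11 stands with the SR-related proteins. All 10 were tested and none was called, where 11.6% of all genes were. At an unadjusted limma p under 0.05 stood 2 of them, or 20%, against 31.9% of all genes. These proteins bind exonic enhancers and recruit the snRNPs. Srsf7 was highest at 8.25 and 8.51 in cKO against 8.01 and 7.69 in Control lenses, with a log2 fold change of 0.53 (95% interval 0.12 to 0.94) and an adjusted p of 0.0886. Srsf9 was lowest at 8.70 and 8.74 against 8.98 and 9.29, with a log2 fold change of -0.41 (-0.79 to -0.04) and an adjusted p of 0.127, and stood at -0.26 relative to all genes without Control replicate B.

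Between them, Srsf5 and Srsf1 stood at 0.19 and 0.07, and Tra2b, an activator of neuronal and testis exons, at -0.03. As single arrays were left out, Srsf1 ranged from -0.0082 to 0.13 relative to all genes. Srsf2, Srsf3 and Srsf6 lay at -0.20, -0.21 and -0.25, Srsf4 at -0.29 and Tra2a at -0.30. The cKO and Control values did not overlap for 8 of the 10 genes, 2 of them higher and 6 lower in cKO lenses, where 62.3% of all genes did not overlap. The median of the family was -0.21, and the family median in each cKO lens, taken against the Control mean and all genes, was -0.19 and -0.22. That direction turned with the scaling, as described below.

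Among the Sm and snRNP proteins 8 of 10 genes were tested and none was called by limma, where 11.6% of all genes were. At an unadjusted limma p under 0.05 stood 3 of the 8, or 37.5%, against 31.9% of all genes. The core ring proteins fell on both sides of 0. Snrpb, which encodes the SmB protein, was at 8.27 and 8.39 in cKO and 7.81 and 7.88 in Control lenses, a log2 fold change of 0.48 (95% interval 0.16 to 0.81) with an adjusted p of 0.0629. Snrpd3 followed at 10.07 and 10.40 against 9.83 and 9.74, with 0.45 (0.07 to 0.83) and an adjusted p of 0.111, and its difference relative to all genes went from 0.44 to 0.27 without Celf1 cKO replicate B. Snrpd1 was at 9.35 and 9.51 against 9.053 and 8.995, with 0.41 (0.07 to 0.74) and an adjusted p of 0.101.

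These 3 are the highest of the family, in which 6 of 8 genes did not overlap between the genotypes, 4 higher and 2 lower, against 62.3% of all genes. Snrpg, for SmG, was also above 0 with a log2 fold change of 0.07, while Snrpf, for SmF, had one of -0.16 and Snrpd2, for SmD2, one of -0.20, each of the 3 with an interval that included 0. Relative to all genes, Snrpf ranged from -0.25 to -0.09 and Snrpd2 from -0.32 to -0.10 as single arrays were left out. The U1-specific genes Snrnp70 and Snrpa stood at -0.01 (-0.34 to 0.32) and -0.10 (-0.43 to 0.23). The family median was 0.03.

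In the group of SF3, U2AF, SF1 and Prpf8, 11 of 12 genes were tested and none was called by limma, where 11.6% of all genes were. An unadjusted limma p under 0.05 was reached by 3 of the 11, or 27.3%, against 31.9% of all genes. U2af1, the small subunit that reads the AG at the intron end, was at 8.33 and 8.69 in cKO and 8.08 and 7.85 in Control lenses, with a log2 fold change of 0.54 (0.13 to 0.96) and an adjusted p of 0.0849, and stood at 0.35 relative to all genes without Celf1 cKO replicate B. Its partner U2af2, the large subunit that binds the polypyrimidine tract, was at 5.19 and 5.37 against 5.76 and 5.54, with -0.37 (-0.74 to -0.01) and an adjusted p of 0.148. The subunits of this dimer thus had point estimates of opposite sign, and neither passed the test.

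Sf3b4, a subunit of SF3B, had the lowest value of the group at 7.003 and 6.976 against 7.38 and 7.59, a log2 fold change of -0.50 ± 0.14 (SE) with an adjusted p of 0.0645. The other SF3 subunits lay close to 0. Sf3a1 and Sf3a3 stood at 0.12 each, Sf3b5 at 0.10, Sf3b3 at -0.04 and Sf3b2 at -0.07. Prpf8, the core protein of the U5 snRNP, was at 0.29 (-0.05 to 0.64), or 0.18 relative to all genes without Celf1 cKO replicate B, and Sf1, which binds the branch point, at -0.12. Leaving out single arrays moved Sf1 between -0.27 and -0.0029 and Sf3a1 between 0.03 and 0.18 relative to all genes. Sf3a2 was detected on both cKO arrays and on neither Control array, at values near the detection limit in both, and is given no fold.

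**Figure D3:**
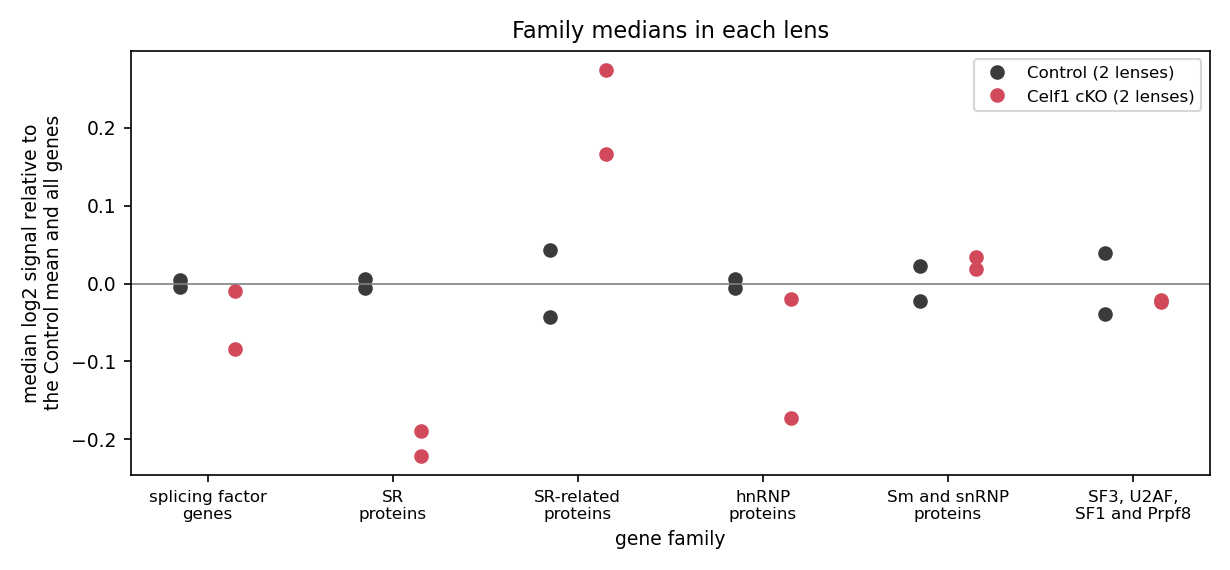
Median log2 signal (y axis) of all members and of each family (x axis) in each lens, relative to the Control mean of each gene and to the median of all genes. Points are single arrays, and the SR proteins lie at -0.19 and -0.22 in the cKO lenses while the Sm and snRNP proteins lie at 0.03 and 0.02.

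How the arrays are brought to a common scale moved the family medians. Relative to the median of all genes, the median of all members was -0.06 after quantile normalisation, -0.04 after cyclic loess and -0.06 in the normalised table that was deposited. It was 0.15 when the arrays were only set to the same median or left as they were, a setting that also moved the median of all genes to 0.53 and 0.57. The SR proteins went from -0.22 to 0.01, the hnRNPs from -0.10 to 0.09, the Sm and snRNP proteins from 0.02 to 0.28 and the SF3 group from -0.03 to 0.26. The SR-related genes lay at 0.11 to 0.19 under the 5 scalings plotted, but Srek1 and Sfswap passed the detection filter through the cKO arrays alone and Scaf11 and Akap17b joined the family with their values known, so that nothing is read from this. The sign of the SR, hnRNP and SF3 medians is therefore tied to the scaling. With quantile normalisation kept, the SF3 median also turned, to 0.06 with detection on all 4 arrays and 0.0038 with detection p under 0.01. Without Control replicate B it was 0.10, and the median of the Sm and snRNP proteins was -0.0059.

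**Figure D4:**
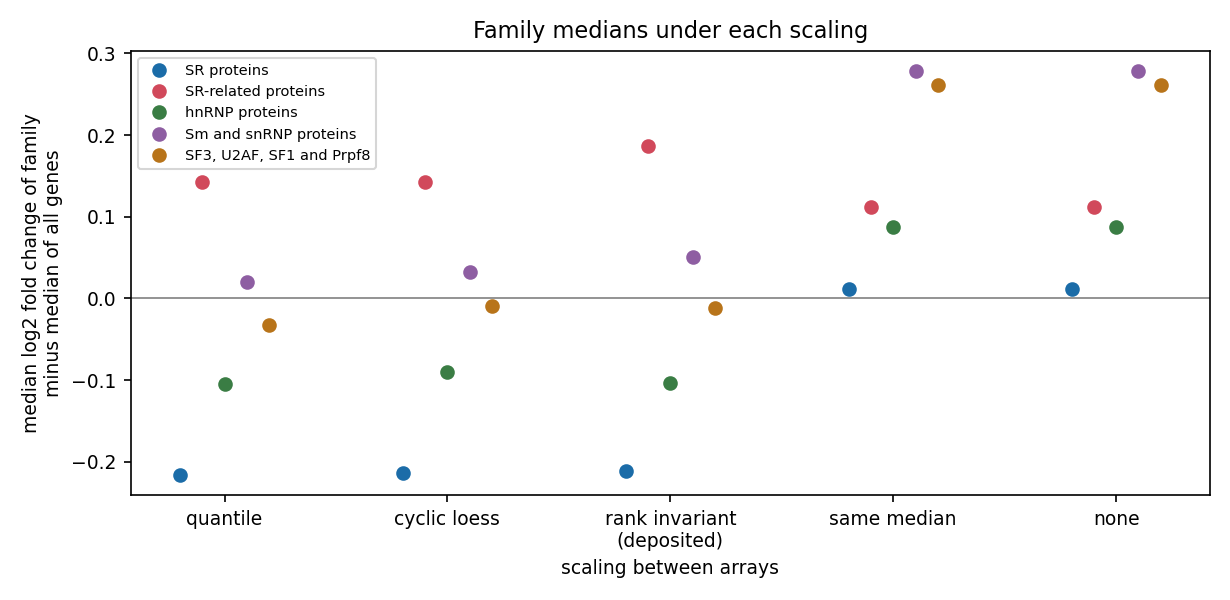
Median log2 fold change of each family minus that of all genes (y axis) under 5 ways of scaling the arrays (x axis). The SR proteins run from -0.22 to 0.01 and the hnRNPs from -0.10 to 0.09, so that both medians change sign, and the SR-related proteins lie between 0.11 and 0.19.

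Probes of a gene can read different transcript forms, so their log2 fold changes were also set against each other. At the level of single probes, 4 of the 88 member probes were called, against 11.5% of all retained probes. They were the probes of Hnrnph3, Sugp2 and Akap17b and a probe of Snrpb. For 26 member genes at least 2 probes were retained, 62 probes in all, and limma's diffSplice test compared each with the other probes of its gene. It called 0 of the 62 at an adjusted p under 0.05, against 1.14% of 8152 probes over all genes, and 5 of the 62 had an unadjusted p under 0.05, or 8.06% against 13.6% over all genes. In 18 of the 26 genes all probes shared a sign, and the spread between the highest and lowest log2 fold change of a gene had a median of 0.23, against 0.28 over all genes with several probes.

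The widest gaps lay in Hnrnph1, Hnrnpa2b1 and Snrpb. The Hnrnpa2b1 probe that starts at base 164 of its transcript read 9.01 and 8.74 in cKO against 9.48 and 9.50 in Control lenses, so its log2 change was -0.62 ± 0.16 (SE). The probe at base 1340 of another transcript variant read 4.70 and 4.89 against 4.95 and 4.17, with 0.23 ± 0.26. The latter was detected on only 1 Control array, and their diffSplice adjusted p was 0.291. Where filters or the choice of the brightest probe left the former alone, Hnrnpa2b1 was called as reduced, at -0.64 to -0.59 relative to all genes. In the deposited normalised table its sign turned, to 0.62 with values under 1 set to 1 and 0.47 with 16 added, and it was not called.

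In Snrpb, the probe nearest the end of the transcript, starting at base 828, read 10.10 and 10.15 in cKO against 9.22 and 9.45 in Control lenses, so its log2 change was 0.79 ± 0.16 (SE), with an adjusted p of 0.0255 in the fit of single probes. With the brightest probe alone standing for each gene, Snrpb was called as elevated, at 0.78 relative to all genes. The probes at bases 723 and 452 had log2 fold changes of 0.36 and 0.30. All 3 pointed upward, and the diffSplice adjusted p of the first was 0.278.

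Hnrnph1 had 5 retained probes, which offer a check of the probes against each other. The lowest of them read 6.42 and 6.20 in cKO and 6.67 and 7.09 in Control lenses, a log2 difference of -0.57 ± 0.19 (SE), where the probes further along the transcript gave 0.24 to 0.51. Its difference from the other probes was -0.89 with an unadjusted diffSplice p of 0.00785 and an adjusted p of 0.16, the lowest of all member probes. Another probe of the gene shares 49 of its 50 bases, yet read 6.16 and 5.71 against 6.35 and 5.46, with a log2 fold change of 0.03 ± 0.30. Control replicate B was above Control replicate A in the former and below it in the latter. Without Control replicate A, the former was called by diffSplice with a difference of -1.34 and an adjusted p of 0.0235.

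The letters below show how alike these probes are. Capitals mark the run that a probe shares, within the first 30 bases, with another probe of Hnrnph1, and all those with coordinates lie on the plus strand of chromosome 11.
Hnrnph1, 50195018 to 50195067, log2 fold change -0.57: CGGGGGAGGCCTTCGTGCAGTTTGCTTCAc
Hnrnph1, probe without coordinates, log2 fold change 0.03: aCGGGGGAGGCCTTCGTGCAGTTTGCTTCA
Hnrnph1, 50196464 to 50196513, log2 fold change 0.48: cagatatggggACGGTGGCTCTACTTTCCA
Hnrnph1, 50196475 to 50196524, log2 fold change 0.24: ACGGTGGCTCTACTTTCCAgagtacaaccg
Hnrnph1, 50197359 to 50197408, log2 fold change 0.51: aattctacagcaggagcaagcggtggtgct

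Such overlapping probes read nearly the same stretch of RNA, and their differences give a measure of how far probes part on these arrays. Over the members, 7 probe pairs of a gene shared at least 30 bases. Their log2 fold changes differed by 0.01 to 0.60 with a median of 0.14, whereas the other 42 pairs within a gene differed by a median of 0.25 and by up to 1.08. The 4 pairs that share 49 bases differed by 0.02 in Scaf11, 0.14 in Srsf11, 0.34 in Srsf3 and 0.60 in Hnrnph1. Between different member genes no probes shared a run of more than 14 bases.

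**Figure D5:**
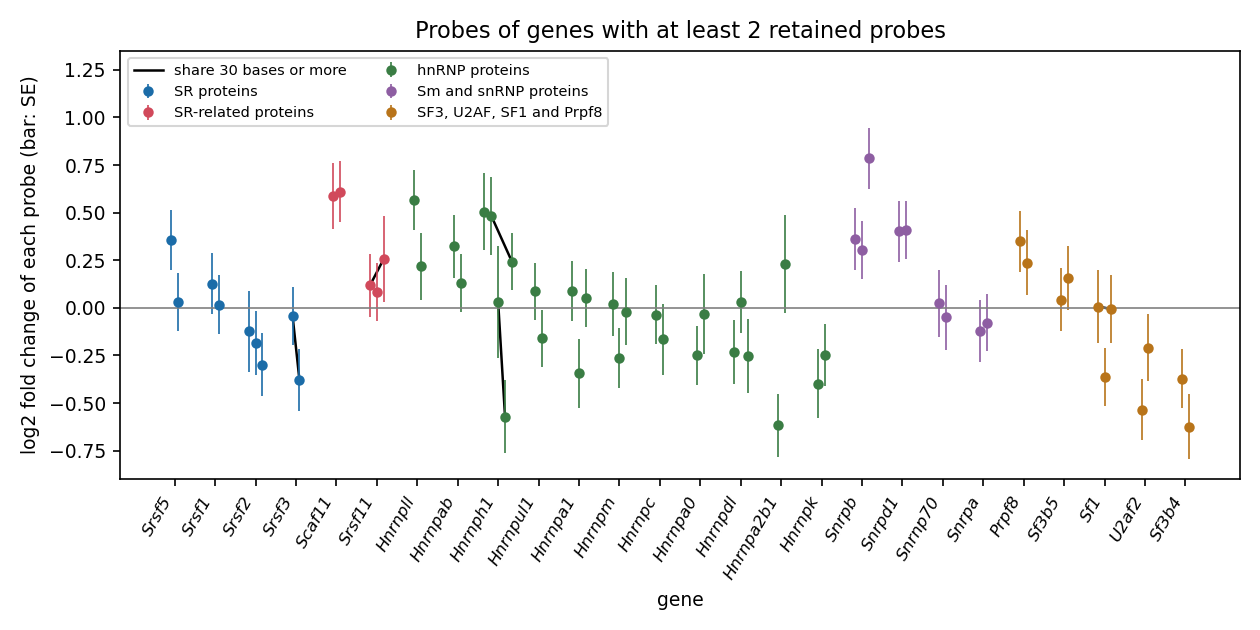
Log2 fold change of each retained probe (y axis, bars are SE) for the 26 member genes with at least 2 retained probes (x axis), coloured by family, with black lines joining pairs that share 30 bases or more. Most probes of a gene lie close to each other, while the joined pair of Hnrnph1 spans from -0.57 to 0.03.

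CELF1 binds GU-rich RNA, so the probe letters were also searched, on the transcript strand, for the runs TGTTTG and TGTGTG. The first, TGTTTG, was present in 1 of 88 member probes, in Hnrnpm, and in 2.33% of all retained probes. TGTGTG was present in 3 member probes, in Snrpa and Srsf4, and in 3.13% of all retained probes. A probe covers only 50 bases of a transcript, so these shares say nothing of sites elsewhere in it.

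Few of the members' neighbours in the pathway were called. Of 51 other spliceosome genes tested, Lsm8, a ring protein of the U6 snRNP, rose from 8.70 and 8.70 in Control to 9.54 and 9.57 in cKO lenses, a log2 difference of 0.86 ± 0.13 (SE) with a limma adjusted p of 0.014. Prpf18, a factor of the second splicing step, rose by 0.71 ± 0.15, and the helicase Ddx5 fell by 0.72 ± 0.15. The other 48 genes of that list were not called, so that 3 of 51 passed where 11.6% of all genes did. Of 15 genes for snRNP assembly, such as the SMN complex, and of 7 exon junction complex genes, limma called 0, with 1 and 0 of them at an unadjusted p under 0.05. Over all genes 11.6% were called and 31.9% stood at such a p. Lsm8 and Prpf18 were also called with cyclic loess, with arrays set to the same median, without scaling and in the deposited normalised table with 16 added, at 0.85 to 1.15 and 0.70 to 1.001 relative to all genes, while Ddx5 lost its call with arrays set to the same median or left unscaled, at -0.47. In the deposited table with values under 1 set to 1, Lsm8, Prpf18 and Ddx5 were not called, with limma adjusted p of 0.0811, 0.105 and 0.104. Prpf18 and Ddx5 also lost their calls without a detection filter. Each of the 3 calls was lost without either cKO replicate, and those of Prpf18 and Ddx5 without Control replicate B as well.

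Among 9 kinases and phosphatases of SR proteins, 2 were called, where 11.6% of all genes were. Both were Clk kinases, which phosphorylate SR proteins in the nucleus. Clk1 was at 6.10 and 6.01 in cKO and 7.16 and 6.70 in Control lenses, and fell by 0.87 ± 0.18 on the log2 scale (SE), with an adjusted p of 0.0296. Clk4 was at 7.01 and 6.94 against 7.71 and 7.50, and fell by 0.63 ± 0.15, with an adjusted p of 0.0374. Srpk1, the cytoplasmic SR kinase, narrowly missed the call at -0.55 ± 0.14 and an adjusted p of 0.0509, while Clk2, Clk3 and Srpk2 had log2 fold changes of -0.14, 0.14 and 0.24. Of 29 other splicing regulators, Son, a scaffold of nuclear speckles, was the only one called, where 11.6% of all genes were. It fell by 0.61 ± 0.15, with a limma adjusted p of 0.0457. The calls of Clk1, Clk4 and Son were lost with arrays set to the same median or left unscaled, where they stood at -0.72, -0.44 and -0.65 relative to all genes, and without either cKO replicate. Without background correction Clk1 kept its call, while Clk4 and Son were not called, at -0.50 and -0.38. With the brightest probe of each gene Clk1 stood at -1.36 and Clk4, no longer called, at -0.39, and Son was not called in the deposited table with 16 added, with an adjusted p of 0.0539. The call of Clk4 was lost when any array was left out, and that of Son without Control replicate B too.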

How the data were processed

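RNA of 2 Celf1 cKO and 2 Control lenses was measured on Illumina MouseWG-6 v2.0 BeadChips. The authors deposited unnormalised bead intensities and a table of background-subtracted, rank invariant normalised intensities with a detection p-value per probe, both deposited without stated genome build. The study's count model was not used, as these values are intensities. Of 45281 probes, 18 with shifted cells were left out. The unnormalised intensities were background corrected by normexp with detection p-values (offset 16) and quantile normalised with limma 3.58.1 in R 4.3.3, probes of a gene were averaged on the log2 scale, and genotypes were compared with lmFit and eBayes over all genes, with Benjamini-Hochberg adjustment. Single probes were compared with diffSplice. Probes were named through RefSeq (GRCm38.p6) identifiers, by Entrez number for 77, accession for 8 and older symbol for 3 of the 88 member probes. Scaf11 and Akap17b were placed with the SR-related proteins after the values were seen. The study's methods describe each lens as a biological replicate without stating whether lenses came from separate mice, so p-values measure the spread between these arrays only, and their number limits the precision. The fits were tested on simulated data.

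Named were the called members, the 3 highest and 3 lowest members of each family, called genes of the other splicing lists, Celf1, Xist and Ddx3y, and beyond this rule further members to describe each family. Members and lists were chosen with earlier results of these data known.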

Additional observations from a re-analysis of the deposited data

How the results depend on the processing

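All counts are of calls at the thresholds above. The 4 called members became 0 in the deposited normalised table with values under 1 set to 1, 2 in that table with 16 added, 2 without background correction and 2 with an offset of 50. They became 33 with arrays set to the same median, 36 without normalisation between arrays (each of them higher), 8 with the same median over probes detected on all arrays, 0 without a detection filter and 0 with treat. Leaving out an array gave 0 to 3. Over all genes, the 1342 calls became 7, 1187, 908, 789, 5421, 5792, 2693, 179 and 88 in the same order, of which 97.3% and 97.7% were elevated with same medians or no scaling, 24.8% with the same median over probes detected on all arrays, 71.4% and 44.8% in the deposited table as ordered above, and 51.6% in the reported fit, and leaving out an array gave 170 to 1544. The members' median relative to all genes, -0.06, became 0.15 in the 3 settings that scale by a median or not at all, and -0.11 with detection p under 0.01, and ranged from -0.085 to -0.0093 without an array. With the replicate letters as a block, 4 members and 1691 genes were called, and diffSplice called 1 member probe, that of Hnrnph1 (adjusted p 0.0498), in place of 0, while leaving out an array gave 0 to 1. Deviations of same-lettered arrays had a correlation of -0.011 over genes, and whether the letters mark anything shared, such as a batch, was not tested. In the 3 settings named for the median, 17 members turned from below to above all genes and 2 the other way. Scaf4 (0.11), Snrpa (0.19), Snrpf (0.13), Snrpd2 (0.015) and Srrm2 (0.033) were among the 17. The cause of these changes was not tested.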

Other observations

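Some probes of splicing factor genes carry another symbol on the array and so stand outside the members, and 9 of them were retained. The Srsf7 probe filed as 9430065L19Rik read 8.26 and 8.21 in cKO and 8.22 and 8.36 in Control lenses, a log2 fold change of -0.05 ± 0.15 (SE), where the member probe of Srsf7 gave 0.53. The Srsf11 probe filed as 0610009J05Rik read 5.98 and 5.22 against 5.09 and 4.90, with 0.61 ± 0.25 and an adjusted p of 0.149 from limma. The Scaf4 probe filed as AA517739 gave -0.41 ± 0.17, the Hnrnpr probe filed as 2610528B01Rik -0.20 ± 0.15, the Sf1 probe filed as Zfp162 0.20 ± 0.16 and the Sfswap probe filed as 1190005N23Rik -0.05 ± 0.17. The remaining 3 were the Akap17b probe described above and 2 Tra2a probes filed as 1500010G04Rik, with log2 fold changes of -0.03 and -0.28. None of the 9 passed limma's test at an adjusted p under 0.05 in the fit of single probes. Hnrnpr is thereby read by a probe although no probe with its own symbol was retained.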
